A study of Mus musculus with 3 samples.

Results

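The genes described are 8 receptors that bind modified lipoproteins or are grouped with scavenger receptors: Cd36, Msr1, Marco, Olr1, Cd68, Scarb1, Cd163 and Stab1. They were taken by name from the gene rows of the deposited matrices, all 8 were found, and they are 8 of 32285 genes in all. Their RNA was measured in aortic CD45+ cells of mice by droplet single-cell sequencing, with 1 library per group. CD45, the phosphatase encoded by Ptprc, is carried by leukocytes, and Ptprc RNA was detected in 90.8 to 93.5% of the cells used in each library.

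Per the labels, the mice of all 3 groups were ApoE-/- on C57BL/6J, so the control group carries the Apoe disruption as well. The group called Ctrl is labelled as a control with no treatment named, the group called HHcy received Hcy at 1.8 g/L in drinking water over 4 weeks, and the group called WD was given western diet over 4 weeks. Whole aortas with their adventitia were used, so plaque and adventitial cells cannot be told apart. The labels do not give the age or sex of the mice or how many aortas were pooled in a library.

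Scavenger receptors take up oxidised or acetylated low-density lipoprotein, dying cells, microbes and other altered ligands. Several of them are not shut down as a cell fills with cholesterol, and uptake through them is a textbook route from macrophage to foam cell in the arterial wall. Cd36 and Scarb1 are class B receptors, of which Cd36 also binds long-chain fatty acids and Scarb1 is the receptor for high-density lipoprotein. Msr1 and Marco are class A receptors with collagen-like stalks. Olr1 (also called LOX-1) is a C-type lectin-like receptor for oxidised low-density lipoprotein. Cd68 is a mucin-like protein found mainly in lysosomes and late endosomes. Cd163 takes up haemoglobin bound to haptoglobin, and Stab1 (stabilin-1) is a multifunctional clearance receptor of macrophages and sinusoidal endothelium.

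In GENCODE vM21 on GRCm38, the build mm10 that the submitters' processing notes name, Cd163 lies on the forward strand at chr6:124304656-124330527. The others lie on the reverse strand. Stab1 is at chr14:31139013-31168641, Cd36 at chr5:17781690-17888801, Scarb1 at chr5:125277087-125341094, Msr1 at chr8:39581685-39642673, Marco at chr1:120474538-120505024, Olr1 at chr6:129485244-129507165 and Cd68 at chr11:69664213-69666153. Scarb1 shares 2764 bp with the same-strand gene Gm42633, which has no row in the deposited matrices. Stab1 shares 112 bp with the opposite-strand gene Nt5dc2, which was at 13.6, 13.2 and 10.8 counts-per-million (CPM) of UMIs in resident macrophage-like cells of the Ctrl, HHcy and WD libraries.

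The 250 bases before the start site are shown for 4 genes: Cd163 and Stab1, which are highest in the same cells, Cd68, which is found across macrophages and monocytes, and Olr1, which is near background in the cells highest for Cd163. Sequences are from RefSeq on GRCm38.p6, and 6 of the 8 genes had an entry (Msr1 and Scarb1 did not). Both strands were searched for 3 short motifs of factors known in macrophage gene control: the AP-1-type site TGANTCA, the ETS core GAGGAA and the MAF site TGCTGA. Capitals mark the matches, on either strand.
Cd163 (chr6:124304401-124304650, forward strand): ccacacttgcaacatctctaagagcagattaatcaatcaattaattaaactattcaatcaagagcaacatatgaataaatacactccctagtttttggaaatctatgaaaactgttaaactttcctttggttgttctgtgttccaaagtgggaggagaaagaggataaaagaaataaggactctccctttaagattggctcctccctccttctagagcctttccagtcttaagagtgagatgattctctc
Stab1 (chr14:31168642-31168891, reverse strand): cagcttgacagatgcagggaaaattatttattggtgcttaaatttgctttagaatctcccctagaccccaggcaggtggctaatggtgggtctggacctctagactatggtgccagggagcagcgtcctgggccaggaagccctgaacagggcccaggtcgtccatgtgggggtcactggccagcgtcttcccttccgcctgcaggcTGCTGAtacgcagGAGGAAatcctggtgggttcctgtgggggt
Cd68 (chr11:69666171-69666420, reverse strand): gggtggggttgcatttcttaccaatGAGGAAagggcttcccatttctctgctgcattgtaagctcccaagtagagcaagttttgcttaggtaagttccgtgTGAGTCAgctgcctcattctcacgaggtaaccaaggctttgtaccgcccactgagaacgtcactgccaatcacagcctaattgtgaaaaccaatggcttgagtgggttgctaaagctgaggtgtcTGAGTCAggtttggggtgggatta
Olr1 (chr6:129507166-129507415, reverse strand): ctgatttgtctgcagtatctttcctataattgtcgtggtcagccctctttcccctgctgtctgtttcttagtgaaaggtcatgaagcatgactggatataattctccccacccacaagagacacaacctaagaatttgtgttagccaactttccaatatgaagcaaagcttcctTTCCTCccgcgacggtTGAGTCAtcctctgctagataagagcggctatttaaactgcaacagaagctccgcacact
The Cd163 window held none of the 3 motifs as written, and the Stab1 window held 1 GAGGAA and 1 TGCTGA. The Cd68 window held 2 TGANTCA and 1 GAGGAA, and the Olr1 window 1 TGANTCA and 1 GAGGAA, the latter on the other strand. Among 32851 windows of this length, 6.75% held TGANTCA, 23.3% GAGGAA and 16.1% TGCTGA. A match describes the letters only.

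The Ctrl, HHcy and WD libraries held 7512, 9753 and 8557 barcodes and 66789257, 105180370 and 93164076 UMIs (unique molecular identifiers, each a counted RNA molecule). Of the barcodes that passed the quality limits, 10.7%, 21.4% and 20.9% were set aside as doublets, since they showed markers of several lineages, which left 5391, 6409 and 5310 cells. These doublets held 37.7 to 59.9% of the UMIs of 7 of the receptors in the HHcy library (16.4% for Marco), against 12.3 to 26.4% in Ctrl and 15.5 to 35.6% in WD. The libraries shared 20 to 24 barcode sequences per pair. The Apoe transcript, which checks the label, was at 16.3, 374 and 19.3 CPM over all barcodes of Ctrl, HHcy and WD, so the HHcy library goes against its ApoE-/- label and is called the library labelled HHcy from here on. These 3' counts do not show which part of the gene is disrupted, and 189 of its 1202 macrophage/monocyte-like cells held 10 or more Apoe UMIs, against 1 and 2 cells in Ctrl and WD.

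Macrophage/monocyte-like cells numbered 1917, 1202 and 2653 in the Ctrl, HHcy and WD libraries, with median depths of 7436, 8408 and 9268 UMIs. Clusters were found without using the 8 receptors. Resident macrophage-like cells (463, 356 and 566) were led by Lyve1, Folr2, Mrc1 and Gas6, and foamy macrophage-like cells numbered 166, 84 and 298, in 2 clusters. Sub-cluster 4 (114, 32 and 269 cells) was led by Gpnmb, Spp1 and Fabp5. Sub-cluster 8 (52, 52 and 29 cells) was led by Mmp12 and Mmp13, but also by the MHC class II genes Cd74, H2-Eb1, H2-Aa and H2-Ab1 and by Cadm1, a marker of type 1 conventional dendritic cells. The mix of these clusters differs between the libraries, so foamy macrophage-like values are also given for sub-cluster 4 alone where that matters. Classical monocyte-like cells (137, 152 and 153) were led by Ly6c2 and Chil3, and non-classical monocyte-like cells (685, 313 and 529) by Ace and Treml4. Another 42, 12 and 90 cells were cycling. Clusters that met no name are given by number: sub-cluster 2 (Cd72, Ms4a7, C1qa; 209, 108 and 727 cells), sub-cluster 5 (Plac8, Apoc2, Mrc1; 101, 97 and 172 cells) and sub-cluster 6 (Prg4, Alox15, Saa3, Fn1, Cd5l; 114, 80 and 118 cells). Sub-cluster 5 scored 0.27 for non-classical monocytes and 0.25 for resident macrophages, under the limit of 0.3. Its median depths were 11442, 11551 and 14898.5 UMIs, against 7040, 8200 and 6431 in non-classical and 4664, 5969 and 6355.5 in resident cells. The doublet rule counts macrophages and monocytes as 1 lineage, so it does not look for pairs of them. Whether sub-cluster 5 holds such pairs was not tested. Markers of neutrophils (14 of 14 detected in each library) summed to 258, 692 and 341 CPM in macrophage/monocyte-like cells, and markers of B cells (15 of 15) to 132, 161 and 96.6. Their part in the results was not tested.

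Levels are counts-per-million (CPM) of the summed UMIs of a population, and brackets give exact 95% Poisson intervals. Where 3 values follow each other they are those of the libraries labelled Ctrl, HHcy and WD, in that order. All intervals cover counting error only and leave out the spread between mice. Each group has a single library, so groups cannot be tested against each other, no p-value is given and differences are described by size. Free RNA in droplets also gives UMIs in cells that do not express a gene. T cell-like cells (61, 120 and 63 cells, median depths of 5033, 7612 and 5387 UMIs) were used as the class that should lack these receptors. They held 10.7 to 11.6 CPM of Cd163, 16.2 to 25.6 of Stab1, 4.27 to 11.6 of Cd36, 8.55 to 16.2 of Scarb1, 9.36 to 27.8 of Cd68, 0 to 4.63 of Msr1 and 0 to 2.31 of Olr1, and no UMI of Marco. Macrophage/monocyte markers (19, 20 and 19 of 22 detected) summed to 1125, 857 and 1229 CPM in T cell-like cells. In B cell-like cells they summed to 514, 524 and 678. The part of macrophage RNA in the T cell-like levels was not tested.

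**Figure D1:**
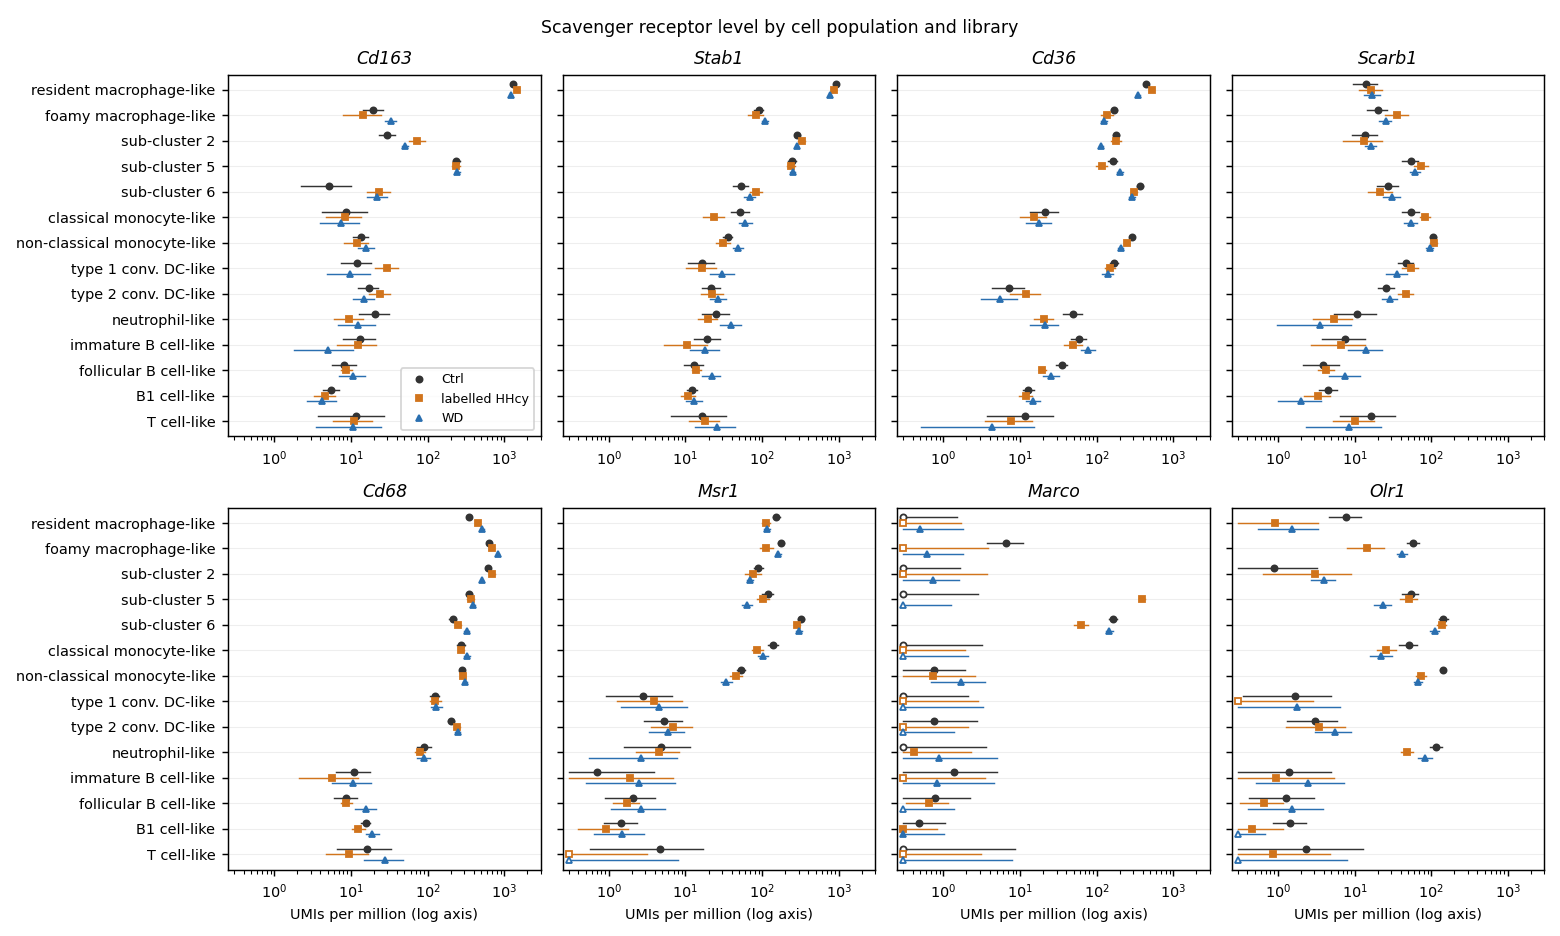
Level of each receptor in CPM (log axis) in 14 populations, with bars for exact 95% Poisson intervals. Colours and symbols give the Ctrl, HHcy and WD libraries, and open symbols drawn at the left edge stand for no UMI. Cd163 and Stab1 peak in resident macrophage-like cells, Scarb1 and Olr1 are high in non-classical monocyte-like cells, and Marco is highest in sub-cluster 6, and in sub-cluster 5 of the library labelled HHcy.

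Cd163 marked resident macrophage-like cells. There it was at 1293 (1249 to 1339), 1487 (1436 to 1539) and 1239 (1205 to 1275) CPM in the Ctrl, HHcy and WD libraries. These cells held 71.6, 73.8 and 69.8% of all its UMIs in the cells used. It was seen in 80.6, 89.9 and 81.1% of them, and in 75.9, 84.7 and 74.8% after each cell was thinned to 2000 UMIs. Sub-cluster 5 came next at 238, 233 and 246 CPM, below resident macrophage-like cells and above every other population with at least 20 cells in each library. Foamy macrophage-like cells were at 19.7, 14.5 and 32.9, and classical monocyte-like cells at 8.76, 8.34 and 7.48. Non-classical monocyte-like cells were at 13.4, 11.9 and 15.9, with a UMI in 8.03, 6.71 and 8.13% of cells, where T cell-like cells had 8.20, 8.33 and 7.94%. The values of both monocyte subsets overlapped those of T cell-like cells and are read as background. Over the libraries, B1 cell-like cells at 4.23 to 5.58 and follicular B cell-like cells at 8.19 to 10.6 lay below the non-classical cells. Non-classical cells were therefore not shown to lack Cd163 RNA.

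Stab1 followed the same first place. Resident macrophage-like cells were at 921 (883 to 960), 881 (842 to 921) and 764 (738 to 792) CPM, and 89.4, 91.6 and 91.3% of them held a UMI. In contrast to Cd163, Stab1 had a second level in sub-cluster 2, at 287, 330 and 285, where Cd163 was at 29.7, 72.5 and 50.8. Sub-cluster 5 was at 245, 241 and 250, and foamy macrophage-like cells at 90.7, 83.0 and 109. All 3 of these levels were above the T cell-like background in each library. The few endothelial cell-like barcodes (10, 21 and 31) were at 380 (229 to 593), 557 (461 to 667) and 463 (381 to 556). Both Cd163 and Stab1 were detected in 74.1, 83.7 and 76.5% of resident macrophage-like cells, close to the products of the separate shares (72.0, 82.3 and 74.1%).

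Cd36 was spread over more populations. Resident macrophage-like cells were at 438 (412 to 465), 529 (499 to 561) and 344 (326 to 363) CPM, and sub-cluster 6 at 370 (340 to 401), 310 (282 to 339) and 289 (267 to 313). Resident macrophage-like cells were above sub-cluster 6 in each library without overlap. Non-classical monocyte-like cells were at 286, 248 and 206, and classical monocyte-like cells at 21.0, 15.1 and 17.8, with intervals that overlapped those of T cell-like cells. The monocyte subsets did not overlap in any library. Type 1 conventional dendritic cell-like cells, the subset that cross-presents antigen, were at 168, 149 and 139 with a UMI in 75.6, 62.2 and 68.8% of cells. Type 2 conventional dendritic cell-like cells were at 7.19, 12.1 and 5.52, with intervals that overlapped the background. The log2 ratio of type 1 over type 2 cells was 4.55, 3.62 and 4.65. Of the 5 receptors with enough UMIs for that pair, 3, 2 and 2 differed by at least 1.5 fold, where 30%, 30.5% and 31.9% of all genes did, and Cd68 was on the other side at -0.69, -0.93 and -0.94. Endothelial cell-like barcodes held 1579, 57.1 and 291, from 4 of 10, 1 of 21 and 8 of 31 barcodes, so these values rest on a handful of cells.

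Scarb1 was highest in non-classical monocyte-like cells, at 106 (97.0 to 115), 108 (96.0 to 121) and 95.9 (86.7 to 106) CPM, among populations with at least 20 cells in each library. Sub-cluster 5 was at 54.0, 74.7 and 61.6, and classical monocyte-like cells at 54.3, 82.9 and 54.1. Type 1 conventional dendritic cell-like cells were at 46.8, 53.7 and 35.8. Resident macrophage-like cells were at 14.0, 16.4 and 17.1, with intervals that overlapped the T cell-like levels of 16.2, 10.2 and 8.55. The receptor for high-density lipoprotein was thus low, and not told apart from the few T cell-like cells, in the cells with the highest Cd163 and Stab1. Over the libraries, B1 cell-like cells were lower at 2.02 to 4.53 and follicular B cell-like cells at 3.84 to 7.55, while immature B cell-like cells were at 6.71 to 14.0. Resident macrophage-like cells were therefore not shown to lack Scarb1 RNA.

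Msr1 was highest in sub-cluster 6, at 322 (295 to 352), 286 (259 to 314) and 303 (280 to 327) CPM, above every other population with at least 20 cells in each library. Foamy macrophage-like cells were at 176, 114 and 163, resident macrophage-like cells at 154, 113 and 115, and classical monocyte-like cells at 140, 87.0 and 102. Sub-cluster 5 was at 118, 102 and 64.0 and sub-cluster 2 at 89.6, 76.5 and 70.0. The intervals of foamy and resident cells overlapped in Ctrl and in the library labelled HHcy, and not in WD (152 to 174 and 105 to 126). The foamy clusters were unlike each other, with 217, 152 and 169 in sub-cluster 4 and 64.9, 78.8 and 76.4 in sub-cluster 8. Non-classical monocyte-like cells were at 53.6, 45.2 and 34.2. Msr1 was near 0 outside macrophages and monocytes: type 1 and type 2 conventional dendritic cell-like cells were at 2.82 to 6.91, mature dendritic cell-like cells at 2.43 to 8.92, neutrophil-like cells at 2.66 to 4.86 and B cell-like cells at 1.41 to 1.98.

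Marco, the other class A receptor, was found mainly in sub-cluster 6, which held 254 of the 273 UMIs of macrophage/monocyte-like cells in Ctrl and 314 of 339 in WD. That cluster was at 162 (143 to 184), 62.5 (50.3 to 76.6) and 147 (131 to 164) CPM, and 38.6, 35.0 and 40.7% of its cells held a UMI. Classical monocyte-like cells held no Marco UMI in any library, and resident macrophage-like cells held 0, 0 and 2. In the library labelled HHcy, 490 of the 584 Marco UMIs of macrophage/monocyte-like cells (83.9%) lay instead in 5 of the 97 cells of sub-cluster 5, with 195, 190, 86, 17 and 2 UMIs each. Sub-cluster 5 had no Marco UMI in its 101 Ctrl and 172 WD cells.

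Those 5 cells differed from the other 92 of sub-cluster 5 in more than Marco, as genes chosen after their values were seen show. Cd5l, a macrophage-secreted protein, was at 6066 against 4.55 CPM, and Cd209b, a C-type lectin, at 3115 against 20. Cd5l was also among the leading genes of sub-cluster 6, where most Marco UMIs of Ctrl and WD lay. Spic, a transcription factor of red-pulp macrophages, was at 402 against 21.8, and Siglec1 (sialoadhesin) at 408 against 23.6. Cd163 was at 12.6 against 265 and Lyve1 at 12.6 against 281. None of the 5 held more than 2 Apoe UMIs.

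Olr1 was highest in sub-cluster 6, at 145 (126 to 165), 136 (118 to 157) and 112 (97.9 to 127) CPM. Non-classical monocyte-like cells were at 142 (132 to 153), 73.5 (63.7 to 84.3) and 66.9 (59.2 to 75.3), which overlapped sub-cluster 6 in Ctrl and lay below it in the other libraries. Neutrophil-like cells were at 117 (96.7 to 139), 48.3 (39.9 to 57.9) and 82.5 (66.6 to 101), below non-classical cells in the library labelled HHcy and overlapping them in Ctrl and WD, with a UMI in 28.1, 17.7 and 22.1% of cells. Classical monocyte-like cells were at 50.8, 26.1 and 22.5, and foamy macrophage-like cells at 58.3, 14.5 and 41.6. Sub-cluster 4 was at 78.6, 29.9 and 41.2, from 131, 14 and 189 UMIs, and sub-cluster 8 at 3.25, 0 and 47.0, from 2, 0 and 16. Resident macrophage-like cells were at 7.80, 0.913 and 1.51, from 19, 2 and 6 UMIs, and sub-cluster 2 at 0.887, 3.06 and 3.94, and both overlapped the T cell-like background.

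Cd68 was detected in most macrophage/monocyte-like cells, 78.0, 83.4 and 86.5% in the Ctrl, HHcy and WD libraries. Foamy macrophage-like cells were at 626 (594 to 659), 686 (635 to 740) and 822 (797 to 848) CPM, and sub-cluster 2 at 623, 696 and 519. Resident macrophage-like cells were at 350, 458 and 518. Non-classical and classical monocyte-like cells were at 279, 290 and 311 and at 273, 277 and 326, with overlapping intervals in each library. Outside this class, type 2 conventional dendritic cell-like cells were at 201, 242 and 249, type 1 at 125, 127 and 130, and neutrophil-like cells at 90.4, 79.5 and 88.7. All of these were above the T cell-like background, so Cd68 RNA was not restricted to macrophages here.

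**Figure D2:**
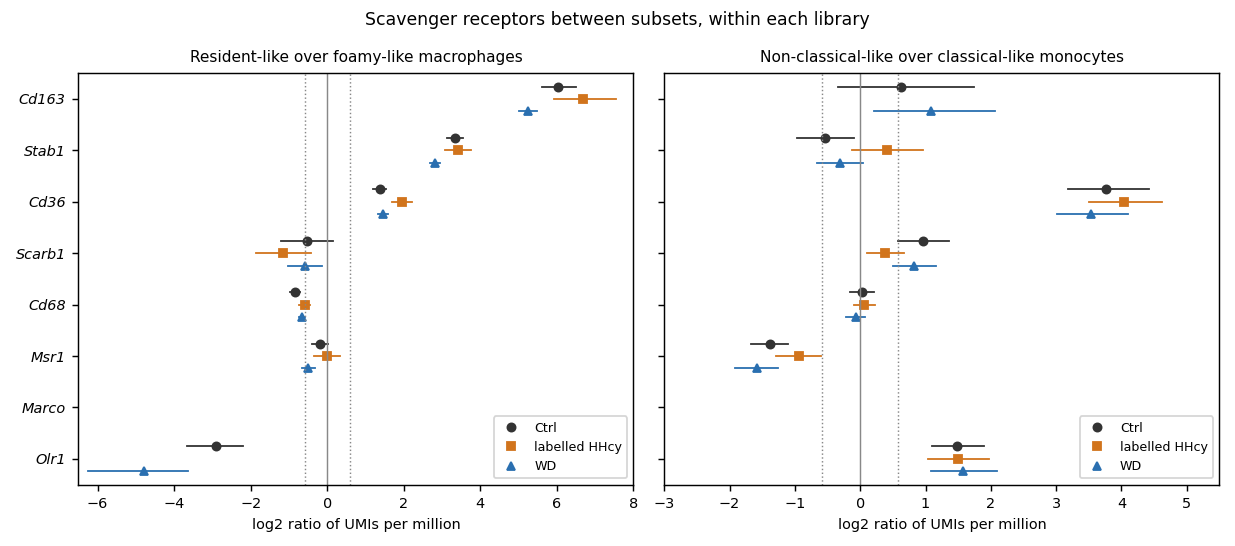
Log2 ratio of CPM within each library, resident over foamy macrophage-like cells (left) and non-classical over classical monocyte-like cells (right), with exact conditional binomial 95% intervals. Dotted lines mark 1.5 fold, and receptors with fewer than 50 UMIs in a pair are not drawn. Cd163, Stab1 and Cd36 lie to the right and Olr1 to the left in the left panel, and Cd36 and Olr1 lie to the right and Msr1 to the left in the right panel.

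The receptors divided resident from foamy macrophage-like cells within each library, in a description with no test, since the subsets come from clustering the same cells. Genes with at least 50 UMIs over the pair were compared, and a difference of 1.5 fold was counted. In the Ctrl library 5 of 7 receptors were past it, where 44.5% of all genes were. In the library labelled HHcy 4 of 6 were past it (42% of all genes), and in WD 5 of 7 (48.1%). On the resident side were Cd163, with log2 ratios of 6.04 (5.61 to 6.49), 6.68 (5.93 to 7.55) and 5.24 (5.01 to 5.47), Stab1, with 3.34, 3.41 and 2.81, and Cd36, with 1.37, 1.95 and 1.46. On the foamy side was Olr1, with -2.90 in Ctrl and -4.79 (-6.25 to -3.64) in WD, too few UMIs being counted in the library labelled HHcy. Cd68 was lower in resident cells, at -0.84, -0.58 and -0.66. Msr1 was at -0.19, -0.01 and -0.50, with intervals that held 0 in the first and second. Scarb1 was at -0.53, -1.14 and -0.57, and its Ctrl interval held 0. Against sub-cluster 4 alone, Cd163 was at 5.68, 7.86 and 5.22, Cd36 at 1.30, 2.46 and 1.45, Cd68 at -0.98, -0.93 and -0.70 and Msr1 at -0.50, -0.42 and -0.55. When single cells were named from their markers rather than by cluster, Stab1 was at 2.51, 2.52 and 1.81, and Olr1 was at -0.76 in Ctrl and -1.05 in WD. The lowest values of Cd36 under the alternatives run for this pair were 0.73, 1.37 and 0.96.

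Monocyte subsets also differed. Of 7 receptors compared in Ctrl, 5 were past 1.5 fold (27.2% of all genes), against 3 of 6 in the library labelled HHcy (26.4%) and 5 of 7 in WD (29.6%). The receptors past it were Cd36, Olr1 and Msr1 in each library and Scarb1 in Ctrl and WD. Cd163 was past it in the same pair of libraries, at levels read as background. Cd36 was higher in non-classical cells, with log2 ratios of 3.77 (3.19 to 4.41), 4.04 (3.50 to 4.63) and 3.53 (3.01 to 4.10). The size of this ratio depends on how cells are named: it was 2.19, 1.92 and 1.5 when single cells were named from their markers, and the highest values under the alternatives were 3.82, 5.41 and 3.96. Olr1 was higher too, at 1.48, 1.5 and 1.57, and so was Scarb1, at 0.96, 0.38 and 0.83, with values down to 0.24, 0.04 and 0.46 under the alternatives. Msr1 was lower in non-classical cells, at -1.39 (-1.67 to -1.10), -0.94 (-1.29 to -0.60) and -1.58 (-1.91 to -1.26). Cd68 differed little, at 0.03, 0.06 and -0.07, with intervals that held 0. Cd36, Scarb1 and Olr1 were thus on the side of non-classical monocytes, which patrol vessel walls, and Msr1 on that of the classical subset, in each library.

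Genes that act beside the receptors were described from a list of 16 (lipid uptake, storage and efflux). Between resident and foamy macrophage-like cells 12 of 16 were lower in resident cells and 2 higher in Ctrl, 10 and 2 of 15 in the library labelled HHcy, and 11 and 2 of 16 in WD. Of all genes 17.9%, 16% and 17.7% were lower and 26.6%, 26% and 30.4% higher. Foamy-like cells were named in part from Fabp5, Lpl and Plin2, so those 3 are no independent values. Only the 8 receptors were kept out of the clustering, so the rest of the list is not independent of the subsets either. Fabp5, a fatty acid carrier, was at -7.50, -6.68 and -5.87, and the efflux transporter Abcg1, a target of liver X receptors, was at -3.42, -3.92 and -2.65. Nr1h3, which encodes liver X receptor alpha, was at -4.50, -3.79 and -3.47. Hmox1, the enzyme that breaks down haem, was higher in resident cells, at 1.82, 2.67 and 1.98. The list's medians were -1.06, -0.85 and -0.96, against 0.10, 0.10 and 0.18 over all genes tested.

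Of 16 other scavenger receptors that were measured, 7 had enough UMIs in this pair. These genes too were not kept out of the clustering, and Mrc1 was among the genes leading the resident cluster. Mrc1, the mannose receptor, was higher in resident cells at 4.12, 4.00 and 3.68, and the collectin Colec12 at 5.01, 7.07 (4.58 to 12.38) and 5.72, the middle value from 306 against 1 UMI. Cxcl16, a membrane-bound receptor for oxidised lipids, was lower in resident cells at -1.31, -2.10 and -0.98, and Cd44, the hyaluronan receptor, at -1.76, -2.02 and -2.17. Per library 2 were higher and 4, 3 and 3 lower. The list's medians were -0.59, -0.54 and -0.56.

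Next, each treated library was set against Ctrl within macrophage/monocyte-like cells. Both comparisons share the Ctrl library. The sub-clusters that hold most of the class differ: non-classical monocyte-like cells made up 35.7% of it in Ctrl, resident macrophage-like cells 29.6% in the library labelled HHcy and sub-cluster 2 27.4% in WD. Non-classical cells made up 26.0% and 19.9% in the latter libraries. Ratios for the class as a whole therefore mix levels within a subset with the shares of the subsets. Values with the same mix of sub-clusters in both libraries are given beside some of them.

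In the library labelled HHcy, 2 of 8 receptors were past 1.5 fold, 1 higher and 1 lower, where 7.43% of all genes tested were (3.11% higher and 4.32% lower). Olr1 was at 45.8 against 73.9 CPM in Ctrl, a log2 ratio of -0.69 (-0.84 to -0.54). With the same sub-cluster mix it was -0.69 and without cells holding 10 or more Apoe UMIs it was -0.97. Naming cells by their own markers brought it to -0.42. Marco was at 49.8 against 16.0, a log2 ratio of 1.64 (1.43 to 1.85). Without sub-cluster 5 this value turned to -0.95, and within sub-cluster 6 it was -1.38 (-1.74 to -1.03), so 5 cells set its direction. Cd163 was at 319 against 225, with a log2 ratio of 0.50 that was 0.18 with the same mix and 0.24 without the Apoe-high cells. The others lay between -0.17 for Msr1 and 0.19 for Scarb1, with Cd36 at -0.05, Cd68 at 0.04 and Stab1 at 0.12. Cells with 10 or more Apoe UMIs were left out of the library labelled HHcy only, while Ctrl was kept whole. Of these 189 cells, 105 were resident macrophage-like and 35 lay in sub-cluster 6, so leaving them out also changes the mix. The part of this change in the Olr1 and Cd163 values was not tested.

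In the WD library, 1 of 8 was past 1.5 fold, where 7.44% of all genes tested were (3.75% higher and 3.68% lower). Olr1 was at 29.4 against 73.9 CPM, a log2 ratio of -1.33 (-1.46 to -1.20), and -0.83 with the same mix. Cd36 was at 173 against 249, a log2 ratio of -0.52 (-0.58 to -0.46) and -0.38 with the same mix. Without sub-cluster 5 it was -0.59, past the fold. Scarb1 was at 36.9 against 50.5, with -0.45 that became 0.04 with the same mix. Cd68 was at 495 against 379, with 0.38 and 0.17. Marco was at -0.49, Msr1 at -0.24, Cd163 at -0.05 and Stab1 at 0.13. The median over the 8 receptors was -0.35, and 0.08 in the library labelled HHcy, against -0.02 and -0.05 over all genes. These medians carry the shares of the subsets as well, and none with the same mix is given. With doublets kept, Olr1 was at -0.69 in the library labelled HHcy and -1.28 in WD, Cd163 at 0.43 and 0.01 and Cd36 at -0.12 and -0.50.

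**Figure D3:**
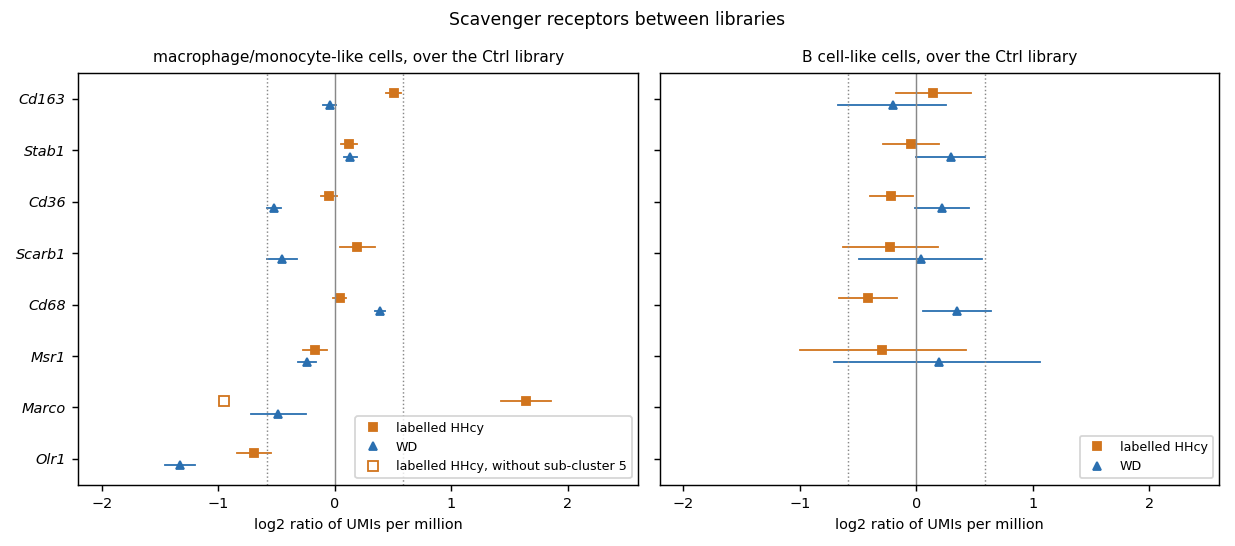
Log2 ratio of CPM over the Ctrl library in macrophage/monocyte-like cells (left) and B cell-like cells (right), with exact conditional binomial 95% intervals and dotted lines at 1.5 fold. The open square gives Marco in the library labelled HHcy without sub-cluster 5, at -0.95 against 1.64 with it. Olr1 lies left of 0 in both libraries in the left panel, and every receptor in the right panel lies within 1.5 fold.

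Within single subsets Olr1 was the receptor with the most repeated difference from Ctrl. In non-classical monocyte-like cells it was 1 of 7 receptors past the fold in the library labelled HHcy (6.79% of all genes), at -0.95 (-1.18 to -0.73), and in WD (6.96%) it was at -1.09 (-1.29 to -0.89) beside Msr1 at -0.65. In classical monocyte-like cells it was at -0.96 (-1.54 to -0.39) and -1.18 (-1.80 to -0.57), and in foamy macrophage-like cells at -2.0 (-2.91 to -1.21) and -0.48 (-0.81 to -0.16). The foamy values mix clusters of different Olr1 level, and sub-cluster 4 alone was at -1.40 (-2.31 to -0.60) and -0.93 (-1.26 to -0.60). In sub-cluster 6 it was at -0.08 (-0.36 to 0.20) and -0.37 (-0.64 to -0.10). For the library labelled HHcy, sub-cluster 5 gave -0.09 (-0.60 to 0.42), while WD gave -1.21 (-1.72 to -0.71). Neutrophil-like cells were at -1.27 (-1.65 to -0.89) and -0.50 (-0.91 to -0.10). All of these values share 1 Ctrl library, and a high Olr1 level in that library cannot be told apart from a low level in the others.

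Among the other subset values, resident macrophage-like cells had none of 6 receptors past the fold in either library (8.75% and 7.65% of all genes). Cd68 was at 0.39 and 0.57 there, Cd36 at 0.27 and -0.35 and Cd163 at 0.20 and -0.06. Classical monocyte-like cells of the library labelled HHcy had 4 of 6 past the fold (14.8%): Msr1 at -0.69, Olr1, Stab1 at -1.14 and Scarb1 at 0.61. Neutrophil markers (14 of 14 detected) summed to 1292 CPM in those cells, against 415 in Ctrl (13 of 14, with Stfa2l1 at 0), and their part in this was not tested. In WD the classical cells had 1 of 6 (13.7%), which was Olr1. Foamy macrophage-like cells had 3 of 7 past the fold in the library labelled HHcy (16%), with Msr1 at -0.62 and Scarb1 at 0.85 beside Olr1, and 1 of 7 in WD (11.9%), Cd163 at 0.74. These values carry the mix of the foamy clusters. In sub-cluster 4 of the library labelled HHcy, Msr1 was at -0.52 (-0.90 to -0.14), within 1.5 fold, Scarb1 at 1.45 (0.60 to 2.28) and Cd36 at -0.89 (-1.38 to -0.44). In sub-cluster 4 of WD, Cd163 was at 0.40 (-0.11 to 0.93). Msr1 in sub-cluster 8 was at 0.28 (-0.40 to 0.95) in the former library.

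In the unnamed sub-clusters 1 or 2 receptors were past the fold in each library, given with the share of all genes. In sub-cluster 2 these were Cd163 at 1.29 in the library labelled HHcy (1 of 5 receptors, 10.4% of all genes) and Cd163 at 0.78 and Cd36 at -0.65 in WD (2 of 6, 10.6%). In sub-cluster 5 Marco was past it in the former (1 of 8, 12%), and Msr1 at -0.88 and Olr1 in the latter (2 of 7, 12%). In sub-cluster 6 Stab1 at 0.67 and Marco at -1.38 were past it in the library labelled HHcy (2 of 7, 13.9%), and Cd68 at 0.61 and Cd163 at 2.10 in WD (2 of 8, 12.1%), the latter from 47 against 8 UMIs. Cycling cells numbered 12 in the library labelled HHcy, where Cd36 was at 1.21, Msr1 at 1.05 and Cd163 at -1.14 (3 of 5, 24.3%). In WD cycling cells Msr1 was at 0.65 and Cd163 at -1.71 (2 of 6, 16.1%).

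Conventional dendritic cell-like cells had 2 of 5 receptors past the fold in the library labelled HHcy (10.3% of all genes), Scarb1 at 0.61 (0.32 to 0.90) and Cd163 at 1.04 (0.67 to 1.42). In WD they had 3 of 7 (10%), Cd36 at -0.67 (-0.90 to -0.44), Msr1 at 0.74 and Olr1 at 0.61, both of these with intervals that held 0. Type 1 cells, which hold most of the Cd36, were 123 of 433, 82 of 280 and 64 of 384 cells, and within them Cd36 was at -0.28 (-0.57 to 0.01) in WD. In neutrophil-like cells 2 of 4 were past it in the library labelled HHcy (29.1%), Olr1 and Cd36, the latter at -1.28 (-1.88 to -0.69). In WD 2 of 4 were (19.8%), Cd36 at -1.22 (-1.98 to -0.49) and Stab1 at 0.63, with an interval that held 0.

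**Figure D4:**
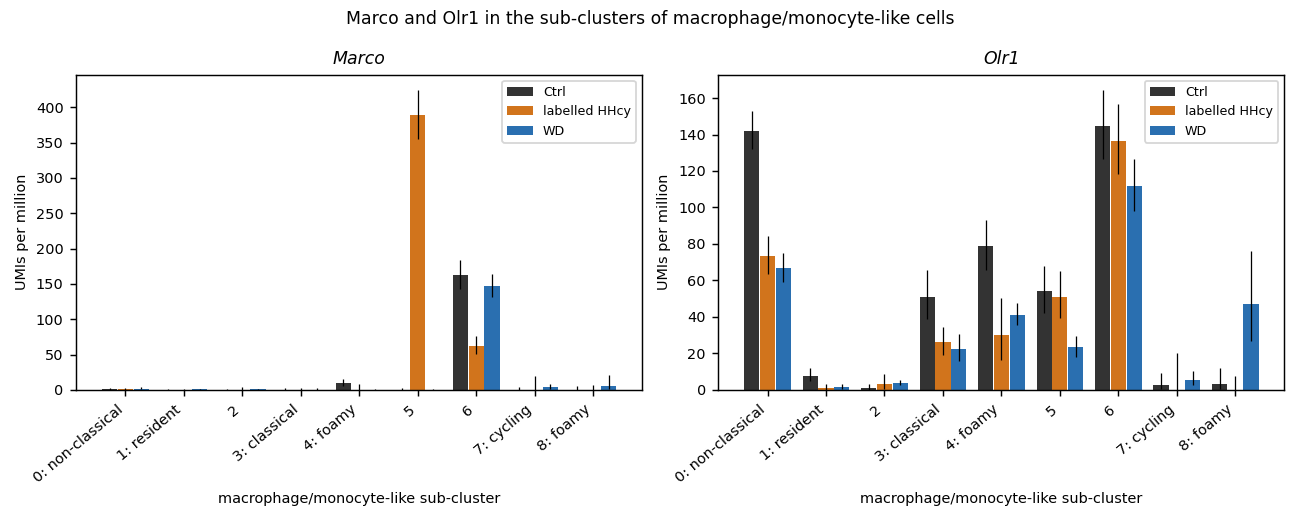
Marco (left) and Olr1 (right) in CPM (linear axis from 0) in the 9 sub-clusters of macrophage/monocyte-like cells, with bars for the 3 libraries and lines for exact 95% Poisson intervals. Marco stands at 162, 62.5 and 147 in sub-cluster 6 and at 389 in sub-cluster 5 of the library labelled HHcy. Olr1 in sub-cluster 0 is at 142 in Ctrl against 73.5 and 66.9.

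Few genes of the wider lists were past the fold in macrophage/monocyte-like cells. Of the other scavenger receptors, 8 had enough UMIs in the comparison with the library labelled HHcy, and 1 was past the fold, Colec12 at 1.18 (0.95 to 1.41). In WD 9 did, and 1 was higher and 1 lower. The higher one was Scarf2 at 0.61 from 45 against 17 UMIs, with an interval that held 0 (-0.23 to 1.5). Of the 16 uptake and storage genes, none was past the fold in the library labelled HHcy and 1 in WD, Fabp5 at 1.40 (1.35 to 1.45), or 641 against 244 CPM. The medians of the other scavenger receptors were -0.07 and -0.18, and those of the uptake and storage genes -0.09 and 0.16.

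B cell-like cells (2185, 3640 and 1218) held little receptor RNA. Cd163 was at 7.07, 7.82 and 6.15 CPM, Stab1 at 13.2, 12.7 and 16.2 and Scarb1 at 4.85, 4.16 and 5.00, all below the T cell-like levels, and Cd68, Msr1, Olr1 and Marco were within the T cell-like intervals. These are read as background. Cd36 was above that background in 2 subsets. The immature B cell-like subset was led by Vpreb3, Fam129c and Sox4. Of its listed early markers, 3 were detected in at least 25% of its cells. Cd36 was highest in this subset, at 58.1 (46.3 to 71.9), 49.8 (37.2 to 65.3) and 76.8 (62.0 to 94.1). A UMI was found in 22.7, 21.7 and 23.6% of these cells, against 8.20, 5.00 and 3.17% of T cell-like cells. Follicular B cell-like cells were at 35.0 (29.4 to 41.4), 19.5 (17.5 to 21.8) and 25.7 (19.9 to 32.5), which did not overlap T cell-like cells in any library, and B1 cell-like cells were at 12.9, 12 and 14.9. The log2 ratio of immature over B1 cells for Cd36 was 2.18 (1.78 to 2.57), 2.06 (1.55 to 2.55) and 2.37 (1.92 to 2.82), and 4 of 5, 3 of 4 and 2 of 3 receptors were past 1.5 fold in this pair, where 50.4%, 49.3% and 48.8% of all genes were.

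The B cell-like subsets differ in share: follicular cells were 691, 2540 and 474 of the 2185, 3640 and 1218 cells, B1 cells 1110, 702 and 479 and immature cells 269, 189 and 220. Ratios for the class mix these shares with levels, and values with the same mix of sub-clusters in both libraries, an alternative chosen after seeing the data, are given beside them. Between libraries, none of the 6 receptors with enough UMIs in B cell-like cells was past 1.5 fold, where 11.9% of all genes were in the library labelled HHcy and 5.02% in WD. With the same mix Cd36 at -0.62 and Msr1 at -0.60 were past it in the library labelled HHcy (5.53% of all genes) and none in WD (4.36%). Without it Cd36 was at -0.21 (-0.40 to -0.03) and 0.22 (-0.01 to 0.45). Cd68 was at -0.41 (-0.66 to -0.16) and 0.35 (0.06 to 0.64), while macrophage/monocyte markers (22 of 22 detected) summed to 514, 524 and 678 CPM in these cells of Ctrl, HHcy and WD, and their part in this was not tested. Among follicular B cell-like cells, the library labelled HHcy had Cd36 at -0.84 (-1.13 to -0.55), 1 of 5 receptors past the fold there (9.17% of all genes), and WD had it at -0.45. In WD follicular cells Cd68 at 0.87 and Stab1 at 0.75 were past it (2 of 4, 5.5%). Of 14 uptake and storage genes, 2 were higher in the library labelled HHcy and 6 in WD, none lower, where 4.58% and 2.94% of all genes were higher and 7.28% and 2.08% lower. With the same mix none of the 14 was past the fold in the library labelled HHcy and 5 were higher in WD. The efflux transporters Abca1 and Abcg1 were at 0.74 and 0.67 in the library labelled HHcy, and at 0.09 and 0.22 with the same mix. In WD they were at 0.61 and 0.85, and at 0.55 and 0.73 with it. Of 6 other scavenger receptors, 3 were lower in the library labelled HHcy and none in WD. Among the former were Cd44 at -1.02 (-1.10 to -0.95), which was -0.37 with the same mix, and Cxcl16 at -0.92 (-1.28 to -0.57), which was -1.25.

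Several receptors were often detected in the same cell. Resident macrophage-like cells held a median of 4 of the 8 receptors per cell in each library, and 3 after thinning to 2000 UMIs, whereas foamy macrophage-like cells held 3, and 1 after thinning. B cell-like and T cell-like cells held a median of 0. Sub-cluster 6, whose cells were deeper, held 4, 5 and 5, and 2 in each library after thinning. Before thinning, both Cd36 and Msr1 were seen in 90.4, 92.5 and 91.5% of its cells, close to the products of the separate shares (88.9, 92.6 and 90.1%). After thinning 24.3, 28.7 and 21.6% of resident macrophage-like cells held 4 or more receptors, against 2.47, 1.22 and 2.71% of foamy macrophage-like cells. In sub-cluster 6 the thinned shares were 9.65, 3.75 and 4.27%.

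The genes with the most similar pattern were found over 64 points (25 populations by library with at least 20 cells) among 11707 genes, by Pearson correlation of log2 levels, as a description in which points share libraries and depth. Cd163 was most like Folr2 (0.90), Mrc1 (0.88) and C6 (0.82). Cd68 was most like Cebpa (0.92), Ccl4 (0.91) and Mpeg1 (0.90), and Msr1 like Lyz2 (0.91), Plxna4os1 (0.91) and Csf1r (0.90). Marco was most like Cd5l (0.86), Stab1 like Trpv4 (0.85), Olr1 like F10 (0.80), Scarb1 like Crybg3 (0.77) and Cd36 like Sgms1 (0.73). Among the receptors themselves the highest value was 0.78 for Msr1 with Cd68, and the lowest was 0.02 for Olr1 with Cd163.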

How the data were processed

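Aortic CD45+ cells of 3 groups of mice were measured, with 1 library per group. The authors' deposited matrices hold raw UMI counts per gene and called barcode, without normalization. They come from Chromium 3' version 3 libraries per the labels' protocols. Cell Ranger is given as 4.0.0 per the file headers and as 2.2.0 per the submitters' processing notes, with build mm10. Empty droplets were not analysed here.

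Barcodes with at least 200 genes and at most 10% mitochondrial UMIs were kept. Barcodes that reached the limit of 2 or more lineages were left out as doublets (7 of 15 B cell markers, 6 of 33 T, NK and ILC2, 9 of 22 myeloid, 8 of 14 neutrophil and 8 of 31 stromal markers). Cells of the 3 libraries were clustered together with scanpy 1.11.5 and leidenalg 0.10.2 (2000 variable genes without the 8 receptors, 30 components, 20 neighbours, resolution 1 for classes and 0.5 for subsets, seed 1) in Python 3.11.15 and without batch correction. Clusters were named from marker lists that hold none of the receptors. The doublet limits and the score limits for names were set after the data were examined, and 8.64, 7.36 and 8.42% of cells stayed unnamed. A class name can differ from the submitters' own.

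UMIs were summed per population and library and scaled to counts-per-million (CPM). Levels carry exact Poisson 95% intervals, shares exact Clopper-Pearson intervals and ratios exact conditional binomial intervals (scipy 1.17.1), which cover counting error only. Barcodes are not replicates, so no test was run. Ratios count genes with at least 50 UMIs over both sides, and 1.5 fold either way was counted as past the fold. The scripts were tested on simulated data.

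The 8 genes, the 2 gene lists and the markers were chosen with earlier results of these data known. Clec7a, a listed scavenger receptor, was not analysed here. Another listed receptor is counted within its list and its values are not reported here. Named genes are the 8 receptors, genes of the lists (those past 1.5 fold with an interval that excludes 0 first) and, for each receptor, up to 3 genes of most similar pattern, among genes that reach 20 CPM, on log2(level + 1). Promoters are RefSeq windows and gene positions are from GENCODE vM21.

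Alternatives covered the mitochondrial limit, doublets, variable genes, resolution, naming each cell by its own markers, clustering each library alone, thinning, mean over cells, scaling, the UMI minimum (10), the sub-cluster mix and Apoe-high cells. Leaving out sub-cluster 5, 2 or 8 and the same sub-cluster mix in B cell-like cells were added after the data were seen. Clustering each library alone was run only for macrophage/monocyte-like cells between libraries, not for pairs of subsets or B cell-like cells. Scaling, the UMI minimum and the sub-cluster mix were not run for pairs of subsets.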

Additional observations from a re-analysis of the deposited data

Results flagged for a closer look

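Marco moved in opposite directions in different sub-clusters of the library labelled HHcy against Ctrl. In sub-cluster 5 it was higher by a log2 ratio of at least 7.42, taken against the limit that 3 counts give in Ctrl, where no UMI was found. In sub-cluster 6 it was at -1.38. The difference between the sub-clusters was not tested, and the first value rests on 5 cells.

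Stab1 of the same library was at 0.67 in sub-cluster 6 and at -1.14 in classical monocyte-like cells, the latter from 45 against 59 UMIs. In the WD library Msr1 was at 0.65 in cycling macrophage/monocyte-like cells and at -0.88 in sub-cluster 5. Cd163 in WD was at 2.10 in sub-cluster 6 and at -1.71 in cycling macrophage/monocyte-like cells, which number 42 in Ctrl and 90 in WD. None of these differences between sub-clusters was tested.

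Apoe, which the labels give as disrupted in all groups, was at 374 CPM over all barcodes of the library labelled HHcy, against 16.3 in Ctrl and 19.3 in WD. In macrophage/monocyte-like cells it was at 1177, against 28.9 and 26.6, and in B cell-like cells at 51.9, against 4.91 and 6.99. Cells with 10 or more Apoe UMIs made up 105 of 356 resident macrophage-like cells and 35 of 80 cells of sub-cluster 6 in that library, populations in which Cd163 and Msr1, respectively, were highest.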

How the results depend on the processing

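No paired analysis was possible because each group has 1 library, and no replicate could be left out. In macrophage/monocyte-like cells, 204 of 216 values under the alternatives kept the sign of the value reported and 52 moved past its interval. Marco in the library labelled HHcy reversed under 2: to -0.81 with cells named by their own markers and to -0.95 without sub-cluster 5. The 5 cells that hold most of its UMIs are left out by construction in the second. Thinning brought it to 0.37. The count of receptors past 1.5 fold there, 2, was 1 with cells named by their own markers and 1 with thinned cells. In WD the count of 1 was 2 at a 20% mitochondrial limit, 2 with thinned cells, 2 without sub-cluster 5 and 3 with the mean over cells. In B cell-like cells, 108 of 116 values kept their sign and 6 moved, and the count of 0 became 2 in the library labelled HHcy with the same sub-cluster mix, 1 there with cells named by their own markers, with the mean over cells and with a minimum of 10 UMIs, and 2 in WD with that minimum. The cause of these moves was not tested. Between subsets within a library, 274 of 292 values kept their sign and 91 moved past the interval of the value reported. Clustering each library alone is not among these alternatives. Resident over foamy ratios of Olr1 ranged from -3.33 to -0.76 in Ctrl and from -5.35 to -1.05 in WD, and those of Scarb1 turned to at most 0.43 in Ctrl and 0.37 in WD. Thinned shares near 1 UMI per cell and all values for the smallest populations are limited by depth, and the spread between mice is unknown.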

Other observations

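Mature dendritic cell-like cells held Cd68 at 38.0, 34.0 and 154 CPM and Cd36 at 11.5, 7.28 and 40.9 CPM in the Ctrl, HHcy and WD libraries, from 77, 35 and 106 cells. Type 1 conventional dendritic cell-like cells of the library labelled HHcy held Cd163 at 29.6 against 11.8 CPM in Ctrl, from 38 and 21 UMIs.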
